A study of Mus musculus with 16 samples.

Results

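The cytosolic ribosomal protein genes encode the proteins of the large and small subunits of the cytoplasmic ribosome. They were taken as the genes whose symbol is Rpl or Rps followed by a number (with at most one of the letters a, x, y or l after it), plus Rplp0, Rplp1, Rplp2 and Rpsa. This gave 80 genes of the 23420 in the RNA data, 49 named for the large and 31 for the small subunit, and the same 80 symbols were found among the 22269 gene intervals of the H3K27me3 data. Symbols that the pattern does not take, such as Rps3a1, were not counted as members.

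RNA and the histone mark H3K27me3 were measured in mouse CD4 T cells that carried or lacked Ezh2, which is the Polycomb enzyme that writes the mark. Ezh2KO cells came from Ezh2 fl/fl.CD4Cre mice, in which Cre is driven by Cd4 and so acts in the T cell lineage, and are labelled Ezh2-/-. Ezh2fl cells came from Ezh2 fl/fl mice without Cre and are labelled wild type, so both genotypes carry the floxed alleles. All cultures began with sorted naive CD4 T cells and used anti-CD3 (5 ug/ml) with anti-CD28 (1 ug/ml). For iTreg, TGF-b1, the cytokine that induces regulatory T cells, was added at 5 ng/ml beside IL-2 at 200 U/ml, and the titles give day 5. For Th0, IL-2 was used at 50 U with no TGF-b1 named, and the titles give day 4. The harvest protocol gives day 4 for the cells, so culture and day cannot be told apart. Age is not given in the sources used here. There were 3 RNA libraries in each of 4 groups, iTreg Ezh2KO, iTreg Ezh2fl, Th0 Ezh2KO and Th0 Ezh2fl, and H3K27me3 ChIP-seq was done with 10 ug of antibody in 2 Th0 libraries per genotype. Libraries are named here by genotype and the number in their title, such as KO-165 or fl-177.

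Ribosomal protein genes are among the most transcribed genes of any growing cell, since every ribosome needs nearly all of these proteins in equal number. Their mRNAs typically start with a C followed by a run of pyrimidines, the 5′ terminal oligopyrimidine (TOP) sequence, through which the kinase complex mTORC1 and the RNA-binding protein LARP1 control their translation. When a naive T cell is activated it grows and multiplies its ribosomes before it divides, and MYC and mTORC1 are well known drivers of that growth. H3K27me3 marks silent genes, and highly transcribed genes as a rule carry little of it.

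RNA libraries held 21910114 to 28443427 counted reads and ChIP libraries 11124172 to 15103496. Ezh2 itself, read over the whole gene, averaged 158 ± 10.6 CPM (reads per 1000000, scaled by TMM) in Th0 Ezh2KO and 313 ± 6.79 CPM in Th0 Ezh2fl libraries, and 95.1 ± 40.9 CPM in iTreg Ezh2KO and 215 ± 46.0 CPM in iTreg Ezh2fl libraries (SD, n = 3 each). The drop passed the threshold in iTreg (adjusted p = 0.0235, edgeR quasi-likelihood test) but not in Th0 (adjusted p = 0.0618). Both calls turned with the setting: in Th0 Ezh2 was called with DESeq2 (adjusted p = 0.0132), with the 2 groups alone (7.67e-08 with edgeR) and without iTreg KO-165 (0.000670) or without both KO-165 and fl-177 of iTreg (2.75e-09), and in iTreg it was not called with the 2 groups alone (0.203) or without iTreg fl-154 (0.0781) or fl-155 (0.0802). One library in each iTreg group stood apart: in a chi-square test of counts over genes, divided by its degrees of freedom, iTreg KO-165 gave 418 and 446 against its replicates, which gave 5.04 between them, and iTreg fl-177 gave 164 and 134, where its replicates gave 9.25. The 2 libraries with the number of KO-165 held 25036 (iTreg) and 27248 (Th0) reads of Xist, and no other RNA library more than 21. All 10 CD4 T cell markers were detected in every group, with summed levels of 3073 to 4992 CPM in iTreg Ezh2KO, 3237 to 4088 CPM in iTreg Ezh2fl, 2397 to 2804 CPM in Th0 Ezh2KO and 3514 to 3649 CPM in Th0 Ezh2fl libraries. B cell markers summed to 18.7 to 60.1 CPM in iTreg Ezh2KO, 24.6 to 27.0 CPM in iTreg Ezh2fl, 199.8 to 455 CPM in Th0 Ezh2KO and 68.8 to 114 CPM in Th0 Ezh2fl libraries, with none of the 8 at 0 in a group. Cd8a and Cd8b1 summed to 39.0 to 136 CPM in iTreg Ezh2KO and 17.6 to 26.3 CPM in iTreg Ezh2fl, and to at most 10.4 CPM in Th0. Myeloid sums reached at most 8.36, 24.3, 0.852 and 0.423 CPM in iTreg Ezh2KO, iTreg Ezh2fl, Th0 Ezh2KO and Th0 Ezh2fl libraries, with Elane, S100a8 and S100a9 at 0 throughout. Dendritic sums stayed at or below 8.19 CPM, NK with gamma-delta T sums at or below 2.01 CPM with Klra8 at 0, and erythroid sums at or below 1.06 CPM with Hba-a1, Hba-a2 and Hbb-b1 at 0. The part of these cell types in the results on ribosomal protein genes was not tested.

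In all 12 libraries the ribosomal protein genes took a large share of the reads. Of the 80, 72 averaged at least 100 CPM over the 12 libraries, between 251 and 2996.5 CPM, and they made up 33 of the 100 genes with the highest CPM. Per kb of exon, 62 of the 100 highest genes were members. The median level of the 72 was 1277 CPM per kb, against 8.31 CPM per kb for the other genes tested. Per kb the highest 5 were Rplp1, Rps4x, Rps12, Rplp0 and Rps18, at 2622, 2382, 2137, 2114 and 1975 CPM per kb. Rplp1 and Rplp0 belong to the acidic stalk of the large subunit, where elongation factors dock, while Rps4x is the X-linked form of a small subunit protein. In CPM, without regard to length, Rpsa was highest, a small subunit protein also known as the laminin receptor.

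The remaining 8 members had lower counts. Rpl3l, the heart and skeletal muscle form of Rpl3, had 0 to 3 reads in every library, whereas Rpl3 averaged 1804 CPM. Rpl10l, a testis form of Rpl10, had 0 reads in all 12, which allows up to 3 reads in each library for counting error alone, whereas Rpl10 averaged 1248 CPM. Rpl39l, another form known from testis, averaged 0.448 CPM against 582 CPM for Rpl39. Rps27l, a relative of Rps27 that is a known p53 target, averaged 97.6 CPM. The other 4 are core ribosome components rather than tissue-restricted forms, yet Rpl26 was listed at 0 in all 12 libraries, and Rpl30, Rps27 and Rpl34 averaged 0.414, 1.24 and 2.31 CPM. Gm15772 and Gm9846, for which RefSeq gives the older names Rpl26 and Rps27, and Rpl34-ps1 were at 0 in all 12 libraries too. Reads that align to several copies may be dropped or shared by the counting, a step not given in the sources used here, so the levels of Rpl26, Rpl30, Rps27 and Rpl34 are uncertain and their changes rest on few reads. RefSeq names at least 1 pseudogene locus for 4 of these 8 members, and for 58 of the 72 abundant ones. Levels and ranks of those abundant members, such as Rps12 with 23 named loci and Rpsa with 12, depend on the same unstated step. The exon length given for Rps15a, 5134 bases, is long for this family and makes its level per kb, 165.8 CPM per kb, uncertain.

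Start sites were compared with RefSeq's promoter windows (GRCm38.p6, 250 bases before and 50 from the start base on), which held 60 of the 80 members, each taken once at its lowest start position. Of these, 10 had more than 1 window, and on the minus strand the lowest position is the most downstream start. A run of at least 6 pyrimidines (only C and T) on the coding strand that covered the start base, or began within 10 bases of it, was found in 29 of the 60 (48.3%) and in 23.4% of all 27025 genes in the table. The letters CCGGAAG, which ETS-family factors recognise, were present on either strand in 25 of the 60 windows (41.7%) and in 9.08% of all. These are counts of letters, not of bound sites. The windows below run from 60 bases before the start base to 20 from it on. They show some of the members named below for their changes, Rps6 as the substrate of S6 kinase, and 2 tissue-restricted forms for contrast. Rpsa, Rplp0, Rps4x, Rpl36a and Rpl11, also called between the cultures in Ezh2fl cells, had no run that met the rule and are not shown. Rpl39, also called there and not shown, had a run of 8 bases. The windows shown thus do not stand for how often changed members have a run. Capitals mark the pyrimidine run where there is one.
Rpl35 (chr2:39005112-39005191, minus strand): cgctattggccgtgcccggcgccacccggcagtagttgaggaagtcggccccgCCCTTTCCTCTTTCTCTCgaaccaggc
Rpl34 (chr3:130730318-130730397, minus strand): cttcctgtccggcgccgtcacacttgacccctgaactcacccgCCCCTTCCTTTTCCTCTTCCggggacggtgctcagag
Rpl27a (chr7:109519135-109519214, plus strand): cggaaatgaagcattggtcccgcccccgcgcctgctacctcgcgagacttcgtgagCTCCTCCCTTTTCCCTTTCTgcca
Rpl13a (chr7:45128726-45128805, minus strand): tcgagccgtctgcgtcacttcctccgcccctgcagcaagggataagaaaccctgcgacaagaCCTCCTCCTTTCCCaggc
Rps15a (chr7:118116128-118116207, minus strand): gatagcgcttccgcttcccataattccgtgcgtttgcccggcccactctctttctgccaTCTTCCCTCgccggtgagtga
Rps2 (chr17:24720003-24720082, plus strand): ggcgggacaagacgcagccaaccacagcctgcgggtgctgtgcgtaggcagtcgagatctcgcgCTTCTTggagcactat
Rpl41 (chr10:128549149-128549228, minus strand): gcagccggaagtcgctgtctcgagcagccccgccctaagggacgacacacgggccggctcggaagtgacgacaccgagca
Rps6 (chr4:86857348-86857427, minus strand): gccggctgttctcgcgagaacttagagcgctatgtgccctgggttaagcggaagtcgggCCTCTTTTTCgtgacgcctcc
Rpl39l (chr16:10170168-10170247, plus strand): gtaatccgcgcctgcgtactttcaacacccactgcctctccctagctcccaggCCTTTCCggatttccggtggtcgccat
Rpl3l (chr17:24727766-24727845, plus strand): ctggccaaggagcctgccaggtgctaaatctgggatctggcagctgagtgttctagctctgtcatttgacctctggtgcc
Among these the run was longest in Rpl27a and Rpl34, at 20 bases each, followed by Rpl35 with 18 and Rpl13a with 14. Rps2 had 6, and Rpl41 and Rpl3l had none that met the rule. For Rpl41 the start base used, 128549168, lies inside its minus-strand interval, which reaches to base 128549305. A run at a start further upstream would thus be missed. CCGGAAG was found in the 300-base windows of Rpl35, Rpl34, Rpl27a, Rps2, Rpl41, Rps6 and Rpl39l.

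The share of all counted reads that fell on ribosomal protein genes was 7.27%, 7.16% and 6.54% in the iTreg Ezh2KO libraries KO-150, KO-153 and KO-165, and 6.58%, 6.71% and 6.62% in the iTreg Ezh2fl libraries 154, 155 and 177. It was 7.30%, 7.33% and 7.43% in the Th0 Ezh2KO libraries KO-165, KO-174 and KO-175, and 7.76%, 7.86% and 7.30% in the Th0 Ezh2fl libraries 173, 176 and 177. Every iTreg library thus lay below every Th0 library of either genotype, while the genotypes overlapped within each culture. These shares are relative to the library, and in bulk samples fewer cells of a type and less RNA per cell cannot be told apart.

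**Figure D1:**
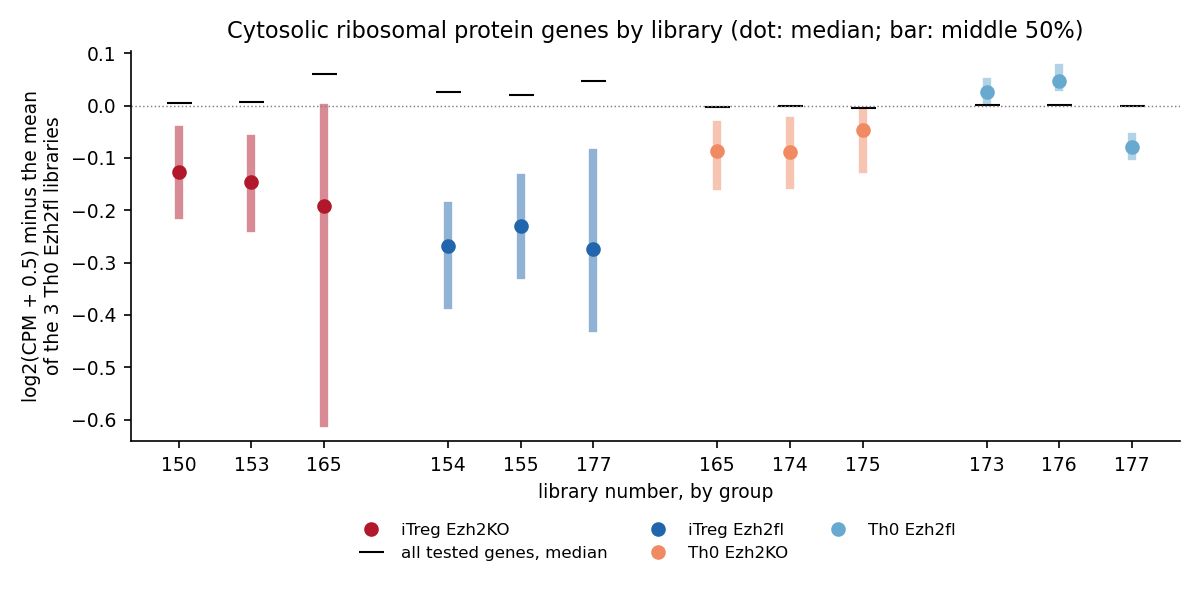
Position of the 77 tested ribosomal protein genes in each of the 12 RNA libraries, as log2(CPM + 0.5) minus the mean of the 3 Th0 Ezh2fl libraries; dots are medians, bars the middle 50% of the genes and black dashes the median of all tested genes. The iTreg Ezh2fl medians lie lowest, at -0.27, -0.23 and -0.27, followed by iTreg Ezh2KO at -0.13, -0.15 and -0.19, and the bars are widest in iTreg KO-165 and iTreg fl-177.

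The group means of the library medians had the same order. Relative to the mean of the Th0 Ezh2fl libraries, the median member stood at -0.16 ± 0.03 in iTreg Ezh2KO, -0.26 ± 0.02 in iTreg Ezh2fl, -0.07 ± 0.02 in Th0 Ezh2KO and 0.00 ± 0.07 in Th0 Ezh2fl on the log2 scale (mean ± SD of 3 library medians). Replicates agreed closely for most members. The median coefficient of variation was 8.93% in iTreg Ezh2KO, 3.68% in iTreg Ezh2fl, 1.95% in Th0 Ezh2KO and 5.01% in Th0 Ezh2fl. Other genes of at least 100 CPM had 28.9%, 14.5%, 3.05% and 3.58% in the same groups. Rps2 was the most variable abundant member in both iTreg groups, at 45.1% in Ezh2KO and 24.5% in Ezh2fl.

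Of the 80 members, 77 passed the filter on low counts, the exceptions being Rpl10l, Rpl26 and Rpl3l, and were tested together with 12768 other genes. Differences are called where the p-value adjusted over all 12845 genes is under 0.05 (edgeR quasi-likelihood test, all 12 libraries in 1 fit). Counts of members called with DESeq2, with fewer libraries or with other settings come without the share of all tested genes called there. They show how far the calls depend on the setting, and not whether members differ from other genes.

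The clearest change was between the cultures in Ezh2fl cells, where ribosomal protein transcripts were lower in iTreg than in Th0. There, 24 of 77 members fell and none rose, against 11.5% of all tested genes called lower and 19.9% called higher. The median member changed by -0.28 on the log2 scale (all tested genes 0.06), and 68 of 77 had a negative change (6020 of all 12845 tested genes). In 57 members every iTreg Ezh2fl library lay below every Th0 Ezh2fl library (33% of all tested genes did so). B cell markers were lower too (4 of 8 called). Cd8a and Itgam, the 1 tested myeloid marker, were called higher in these iTreg libraries. The part of these markers was not tested. The fall covered both subunits, with 17 of 46 large and 7 of 31 small subunit genes called.

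Rpl41, which encodes the shortest ribosomal protein, had 512, 508 and 451 CPM in the iTreg Ezh2fl libraries, against 823.5, 879 and 724 CPM in the Th0 Ezh2fl libraries. The groups were well apart, and the change was -0.72 ± 0.11 (log2, SE; adjusted p = 0.00187, edgeR). Rps2, a small subunit protein near the entry of the mRNA channel, had 1351, 1296 and 834 CPM in iTreg Ezh2fl and 2257, 2295 and 2130 CPM in Th0 Ezh2fl libraries. Its groups did not overlap either, although iTreg fl-177, the library that stood apart, was far below the other iTreg Ezh2fl libraries (change -0.94 ± 0.32, adjusted p = 0.0486, edgeR). Rpl35, which sits by the exit of the nascent chain, had 340, 355 and 332 CPM in iTreg Ezh2fl and 504, 501 and 441 CPM in Th0 Ezh2fl libraries (change -0.49 ± 0.10; adjusted p = 0.00642, edgeR). All 3 iTreg libraries were below all 3 Th0 libraries.

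The acidic stalk genes fell in part. Rplp1 averaged 1021 ± 29.0 CPM in iTreg Ezh2fl and 1400 ± 89.1 CPM in Th0 Ezh2fl libraries (SD, n = 3 each; change -0.46 ± 0.10). Rplp0 averaged 2536 ± 70.4 and 3322 ± 170 CPM in iTreg Ezh2fl and Th0 Ezh2fl libraries (change -0.39 ± 0.10). Rplp2 did not pass the threshold, at 582 ± 12.7 CPM in iTreg Ezh2fl and 649.9 ± 35.7 CPM in Th0 Ezh2fl libraries (adjusted p = 0.190 with edgeR). Rpsa had 2553, 2427 and 2539 CPM in iTreg Ezh2fl, against 3319, 3475 and 3203 CPM in Th0 Ezh2fl libraries (change -0.41 ± 0.08; adjusted p = 0.00542, edgeR). Among the 4 X-linked members, Rps4x, Rpl36a and Rpl39 fell, by changes of -0.36, -0.40 and -0.32, and Rpl10 did not pass the threshold (adjusted p = 0.145 with edgeR). Of the pair that carries 5S rRNA and can bind the p53 inhibitor Mdm2, Rpl11 fell (change -0.33, adjusted p = 0.0368 with edgeR), while Rpl5, at 1498 ± 36.1 CPM in iTreg Ezh2fl and 1894 ± 58.9 CPM in Th0 Ezh2fl libraries, did not pass the threshold. Rps6, the S6 kinase substrate, and Rpl22, which mouse alpha-beta T cells need in the thymus, did not pass it either (adjusted p = 0.118 and 0.186, edgeR).

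Rpl30 and Rpl34 also were called, but on few reads. Rpl30 had 9, 4 and 5 reads in the iTreg Ezh2fl libraries and 10, 14 and 15 in the Th0 Ezh2fl libraries (change -1.13 ± 0.38), and Rpl34 had 49, 33 and 24 reads in iTreg Ezh2fl, against 64, 69 and 57 reads in Th0 Ezh2fl libraries (change -0.88 ± 0.27). Both are among the 4 core members whose levels were given above as uncertain.

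**Figure D2:**
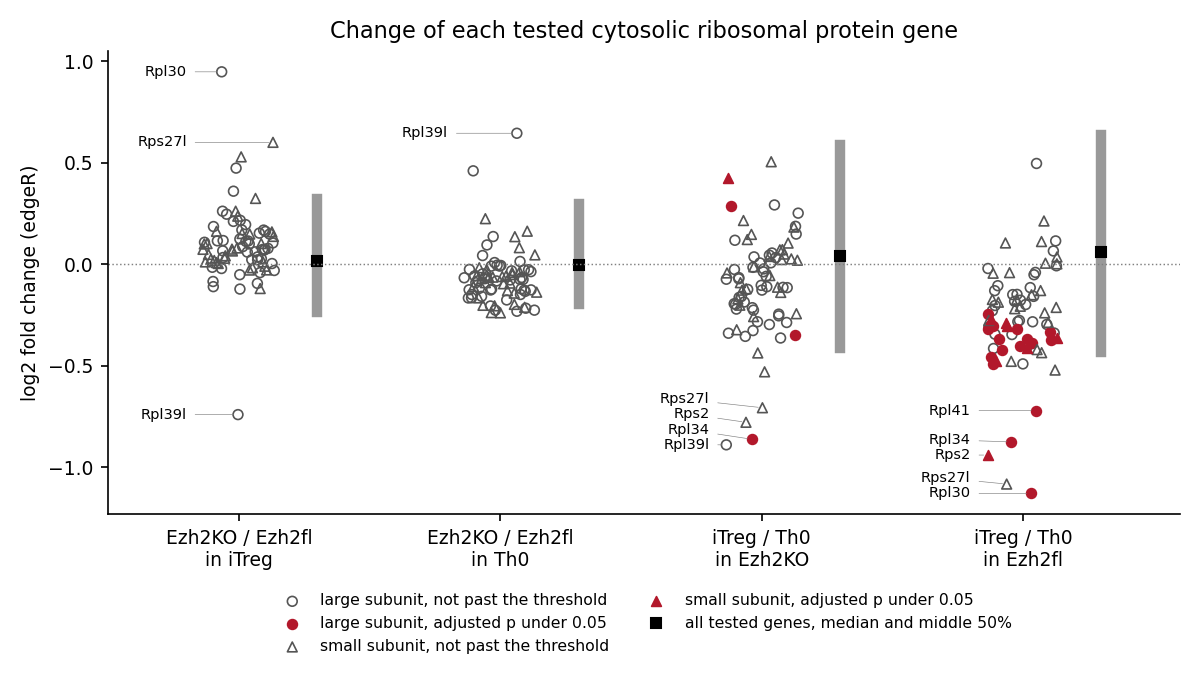
Change of each of the 77 tested ribosomal protein genes in 4 comparisons, as the edgeR log2 fold change (circles: large subunit; triangles: small subunit; filled: adjusted p under 0.05), beside the median and middle 50% of all tested genes. Most members lie below 0 for iTreg against Th0 in Ezh2fl, where 24 are filled, and 4 are filled for iTreg against Th0 in Ezh2KO and none for either genotype comparison.

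The number called depended on which libraries were in the fit. The share of all tested genes called in these fits is not given, so the counts cannot be set against it. Without iTreg KO-165, which is in neither group compared, 54 members were lower and 1 was higher. Without both iTreg libraries that stood apart, 62 were lower and 1 was higher, with 5 libraries in the comparison. Only the numbers of those iTreg libraries recur in Th0, so in that fit the cultures share no library number. Culture and whatever the number marks then cannot be told apart. Leaving out 1 Th0 Ezh2fl library left 6 (without 173), 4 (176) or 15 (177), and leaving out 1 iTreg Ezh2fl library left 11 (154), 10 (155) or 12 (177), all of them lower. The median member stayed between -0.32 and -0.25 whichever single library was left out.

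In Ezh2KO cells the same culture comparison gave few calls. Of 77 members, 2 were called higher and 2 lower in iTreg (16.6% and 8.75% of all tested genes), and the median change was -0.10 (all tested genes 0.04). All 8 B cell markers were called lower in these iTreg libraries, and both CD8 and 3 of 10 CD4 T cell markers higher. Of 3 tested dendritic markers 1 was called higher, and the part of all these markers was not tested. Rps15a, a small subunit protein, had 931, 908 and 1057 CPM in iTreg Ezh2KO and 704, 716 and 739 CPM in Th0 Ezh2KO libraries, with no overlap (change 0.42 ± 0.10; adjusted p = 0.0193, edgeR). Rpl13a, a large subunit protein, had 1281, 1264 and 1289 CPM in iTreg Ezh2KO and 1034, 1023 and 1085 CPM in Th0 Ezh2KO libraries (change 0.29 ± 0.09; adjusted p = 0.0361, edgeR). Those groups were likewise apart, in the direction opposite to most of the family.

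Rplp1 was lower in both genotypes. It had 1053, 1028 and 1199 CPM in iTreg Ezh2KO libraries, against 1358, 1388 and 1437 CPM in Th0 Ezh2KO libraries (change -0.35 ± 0.10; adjusted p = 0.0288, edgeR). Rpl34 had 52, 53 and 30 reads in iTreg Ezh2KO and 89, 92 and 99 reads in Th0 Ezh2KO libraries (change -0.86 ± 0.27; adjusted p = 0.0399, edgeR). Rps2 had 1811, 1852 and 696 CPM in iTreg Ezh2KO, against 2464, 2499 and 2516 CPM in Th0 Ezh2KO libraries, and did not pass the threshold (change -0.78 ± 0.32; adjusted p = 0.0912, edgeR). The low value was that of iTreg KO-165. The count was 0 when any one Th0 Ezh2KO library was left out, 1 without iTreg KO-150, and 2 without Th0 fl-173, 176 or 177 or iTreg fl-155. Fitting the 2 Ezh2KO groups alone gave 0, and with DESeq2 5 members were higher and 13 lower. Without both iTreg libraries that stood apart 6 were higher and 29 lower, again in a fit where the cultures share no library number.

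**Figure D3:**
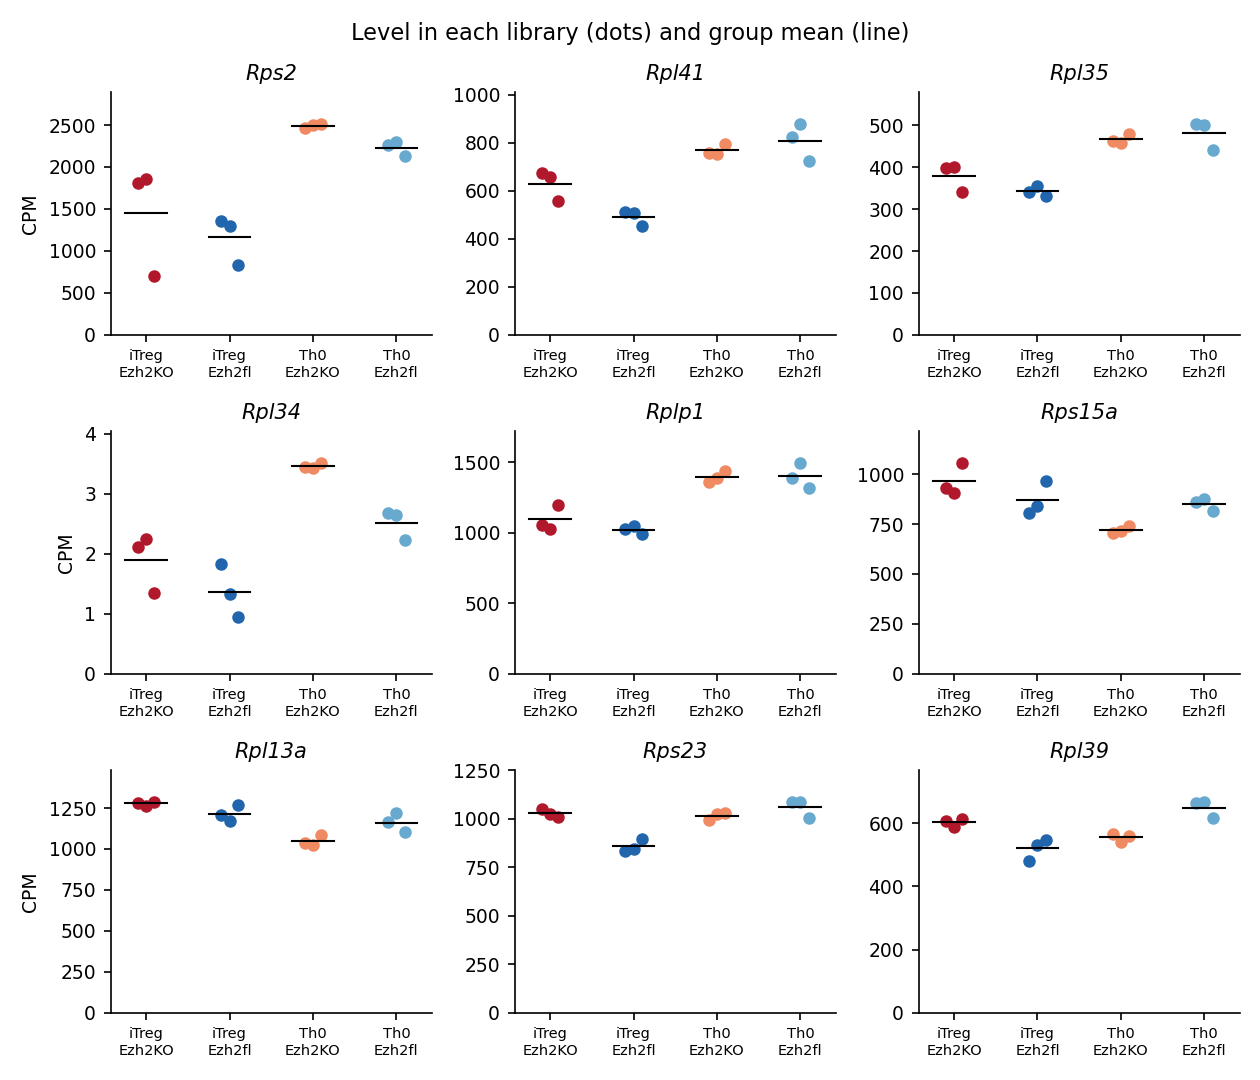
Level of 9 ribosomal protein genes in CPM in each RNA library (dots) with the group mean (line), by group, on axes that start at 0. Rps2, Rpl41, Rpl35 and Rplp1 are lower in the iTreg groups, Rps15a and Rpl13a are higher in iTreg Ezh2KO than in Th0 Ezh2KO, and Rps23 and Rpl39 are higher in all 3 iTreg Ezh2KO than in all 3 iTreg Ezh2fl libraries; Rpl34 is at most 3.52 CPM.

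Loss of Ezh2 within a culture gave no call among the members. In iTreg, 0 of 77 were called by edgeR (16.7% of all tested genes were, 9.45% higher and 7.26% lower), 7 had an unadjusted p under 0.05, and DESeq2 called 9 higher and 1 lower. The median change was 0.07 (all tested genes 0.01), and 62 of 77 changes were positive (6617 of all 12845 tested genes). Without overlap, 15 members were higher and 2 lower (12.9% and 12.5% of all tested genes). Of the markers, 4 of 8 of B cells were called lower in iTreg Ezh2KO, 1 of 2 of CD8 T cells higher, and 2 of 10 of CD4 T cells higher and 2 lower. All 3 tested dendritic markers and the 1 tested NK marker, Klrb1c, were called higher there, with group means of at most 3.43 CPM. The part of these markers was not tested. Rpl27a, a large subunit protein, had 1106, 1102 and 1132 CPM in iTreg Ezh2KO and 929, 940.5 and 917 CPM in iTreg Ezh2fl libraries. The groups were apart, and the change of 0.26 ± 0.08 just missed the threshold (adjusted p = 0.0528, edgeR). Rps23, a small subunit protein at the decoding centre, had 1053, 1024 and 1007 CPM in iTreg Ezh2KO and 836, 843 and 894 CPM in iTreg Ezh2fl libraries (change 0.26 ± 0.08; adjusted p = 0.0623, edgeR). Rpl41 had 672, 659 and 557 CPM in iTreg Ezh2KO, against the 512, 508 and 451 CPM given above for iTreg Ezh2fl (change 0.36 ± 0.11; adjusted p = 0.0578, edgeR). Without iTreg KO-165, 17 members were called higher, and without both libraries that stood apart 36 were called higher and none lower, with a median of 0.13 and 2 libraries left per group.

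In Th0 most member changes were small and negative, but the genotypes overlapped by library median. Relative to the Th0 Ezh2fl mean, Th0 fl-177 stood at -0.08 and Th0 KO-175 at -0.05 (log2). All 8 B cell markers were called higher in Th0 Ezh2KO. Xcr1, 1 of 3 tested dendritic markers, and Klrb1c, the 1 tested NK marker, were called higher too. Of the 10 CD4 T cell markers 2 were called lower there. Cd4 averaged 268 ± 19.5 CPM in Th0 Ezh2KO and 494 ± 25.7 CPM in Th0 Ezh2fl libraries (adjusted p = 0.00171, edgeR), and Cd5 123 ± 12.9 and 373 ± 10.0 CPM in Th0 Ezh2KO and Th0 Ezh2fl (adjusted p = 0.00805, edgeR; SD, n = 3 each). The summed level of the 10 was lower in every Th0 Ezh2KO library than in any Th0 Ezh2fl library. The part of these markers in the result was not tested. Again 0 of 77 were called by edgeR (12% of all tested genes were, 8.74% higher and 3.22% lower), 4 had an unadjusted p under 0.05, and DESeq2 called 11 lower. The median change was -0.07 (all tested genes 0.00), and 65 of 77 changes were negative (6453 of all 12845 tested genes). Without overlap, 27 members were lower and 4 higher (30.1% of all tested genes in each direction). The 3 smallest p-values belonged to Rpl39, Rpl24 and Rps7. Rpl39, a small protein in the lining of the exit tunnel, had 567, 540.2 and 559 CPM in Th0 Ezh2KO, against 665, 668 and 616 CPM in Th0 Ezh2fl libraries (change -0.23 ± 0.09; adjusted p = 0.152, edgeR). Rpl24, a large subunit protein, had 496.5, 503 and 523 CPM in Th0 Ezh2KO, against 616, 605 and 560.0 CPM in Th0 Ezh2fl libraries (change -0.23 ± 0.09; adjusted p = 0.164, edgeR). Rps7, a small subunit protein, had 789, 795 and 798.5 CPM in Th0 Ezh2KO, against 951, 919 and 864 CPM in Th0 Ezh2fl libraries (change -0.20 ± 0.08; adjusted p = 0.183, edgeR). In all 3 genes every Th0 Ezh2KO library was below every Th0 Ezh2fl library. Fitting the 2 Th0 groups alone gave 4 higher and 27 lower, leaving out iTreg KO-165 gave 10 lower, and leaving out both iTreg libraries that stood apart gave 4 higher and 28 lower. The main fit estimates the spread of each gene over the iTreg libraries too. Its count of 0 thus does not show that the Th0 groups agree within the spread of their own libraries.

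The test of whether the genotype difference depended on culture also called 0 of 77 members (4.49% of all tested genes, 1.63% positive and 2.86% negative), with 8 at an unadjusted p under 0.05 and 11 called by DESeq2. The difference of differences was positive in 73 of 77 members and in 6578 of all 12845 tested genes. Its median was 0.16 in members (all tested genes 0.01). In 52 members the genotype change was negative in Th0 and positive in iTreg, and the share of all tested genes with this pattern is not given. Members shift together between libraries, so these counts are not independent observations. Rpl39 had the smallest p, with a difference of 0.44 ± 0.13 (adjusted p = 0.0938, edgeR): its iTreg libraries gave 608, 587 and 613 CPM in Ezh2KO, against 482, 532 and 548 CPM in Ezh2fl. Rps23 and Rpl41 followed, at 0.33 ± 0.12 and 0.43 ± 0.16 (adjusted p = 0.194 and 0.199, edgeR). Without iTreg KO-165, 18 members passed the threshold, and without both libraries that stood apart 43 did, all of them positive.

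Other genes of ribosome production were described from lists, by counts alone, to be read against the 11.5% of all tested genes called lower and the 19.9% called higher in the culture comparison within Ezh2fl cells. There, 39 of 73 mitochondrial ribosomal protein genes fell and none rose, with a median change of -0.68. Examples were Mrpl30, at 52.4 ± 2.21 CPM in iTreg and 84.3 ± 4.63 CPM in Th0 libraries, and Mrpl44, at 22.4 ± 1.09 and 39.5 ± 2.32 CPM in iTreg and Th0. Of 54 ribosome biogenesis genes 11 fell and none rose, with a median of -0.99. Among these Ubtf, the RNA polymerase I transcription factor, averaged 234.7 ± 16.1 CPM in iTreg and 321 ± 10.8 CPM in Th0 libraries, and Emg1, a methyltransferase of small subunit maturation, 82.1 ± 10.3 and 119.9 ± 8.51 CPM in iTreg and Th0. Both medians lay further below 0 than that of the cytosolic ribosomal protein genes.

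A list of translation factors and other genes with TOP mRNAs, such as Tpt1, was mixed, with 5 of 22 lower and 1 higher (median -0.23). Pabpc1, the poly(A)-binding protein, averaged 1298 ± 30.5 CPM in iTreg Ezh2fl and 1897 ± 26.5 CPM in Th0 Ezh2fl libraries, while Tpt1 rose, with 3857 ± 272 CPM in iTreg Ezh2fl and 2726 ± 74.8 CPM in Th0 Ezh2fl libraries. Of 10 tested genes of the MYC network 5 rose and none fell (median 0.39). The rises included Mxi1 and Mxd1, which pair with Max and oppose MYC. Mxi1 averaged 62.0 ± 9.67 CPM in iTreg Ezh2fl and 21.0 ± 5.10 CPM in Th0 Ezh2fl, and Mxd1 112 ± 10.0 and 47.8 ± 3.57 CPM in iTreg Ezh2fl and Th0 Ezh2fl. Of 21 genes of mTORC1 and TOP control 3 rose and 2 fell, the rises including Ddit4 and Sesn1, both inhibitors of mTORC1 signalling, and the falls Slc3a2, a subunit of amino acid transporters. Of the 4 tested relatives of ribosomal proteins outside the pattern, Rpl36al fell, with 160.2 ± 26.2 CPM in iTreg Ezh2fl and 259 ± 14.5 CPM in Th0 Ezh2fl libraries. Of 6 tested genes around the 5S particle and p53, Mdm4 rose and Heatr3 fell.

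In Ezh2KO cells the corresponding culture counts were 15 of 73 mitochondrial ribosomal protein genes lower (median -0.55) and 6 of 54 biogenesis genes lower (median -0.89). Of the 22 genes in the TOP list 2 were lower and 1 was higher, and 5 of 10 MYC network genes were higher. Of all tested genes, 8.75% were called lower and 16.6% higher in that comparison. Between genotypes, at most 2 genes of any of these lists passed the threshold in one direction (of all tested genes, 9.45% were called higher and 7.26% lower in iTreg, and 8.74% and 3.22% in Th0). Of the biogenesis genes 1 was higher in iTreg Ezh2KO than in iTreg Ezh2fl, and none was called in Th0. In the MYC network Mycn was called higher in Ezh2KO in both cultures, Mxd1 lower in both and Mxd3 lower in iTreg. Mycn averaged 21.6 ± 2.72 CPM in Th0 Ezh2KO and 1.95 ± 0.449 CPM in Th0 Ezh2fl libraries. In iTreg it averaged 28.7 ± 24.3 CPM in Ezh2KO and 2.39 ± 1.42 CPM in Ezh2fl libraries. The part of these genes was not tested.

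H3K27me3 was counted over whole gene intervals in Th0 cells, without an input or spike-in library among the files used here. Members' intervals held 4175 and 3767 reads in the Th0 Ezh2KO libraries 10 and 9, and 1703 and 1902 reads in the Th0 Ezh2fl libraries 33 and 7. Density, in CPM per kb of interval without TMM scaling, had a median over the 80 members of 0.939 in Ezh2KO and 0.396 in Ezh2fl cells. For all 22269 intervals the medians were 0.936 in Ezh2KO and 0.847 in Ezh2fl. Members thus lay at a median percentile of 50.5 in Ezh2KO and 19.9 in Ezh2fl cells: 39 members in Ezh2KO and 75 in Ezh2fl were below the median of all intervals, and none reached the highest 10% in Ezh2fl. The median member was therefore near the middle of all intervals in Ezh2KO and in the lower part in Ezh2fl libraries.

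Of 75 members with enough reads to test, 50 were called higher in Th0 Ezh2KO and none lower, against 32.2% of all tested intervals called higher and 20.6% lower (edgeR with library size scaling). The 5 not tested were Rpl41, Rpl35, Rpl36, Rps21 and Rps27. The median change was 1.17 on the log2 scale (all tested intervals 0.21). In 68 members both Ezh2KO libraries were above both Ezh2fl libraries and in 1 below (48.1% and 31.6% of all tested intervals). Rps16, a small subunit protein, had the largest change, with 1.23 and 0.747 CPM per kb in Ezh2KO 10 and 9, against 0.0879 and 0.236 in Ezh2fl 33 and 7 (change 2.57 ± 0.54; adjusted p = 0.00321, edgeR). It rests on 38 and 17 reads in the Ezh2KO libraries and 2 and 6 reads in the Ezh2fl libraries, over an interval that overlaps that of AF357399. Rplp0 had densities of 0.824 and 0.970 in the Ezh2KO libraries and 0.401 and 0.245 in the Ezh2fl libraries (change 1.47 ± 0.36). Rpsa had 0.877 and 1.23 in Ezh2KO and 0.391 and 0.454 in Ezh2fl libraries (change 1.30 ± 0.34). For Rplp0 and Rpsa the genotypes were apart, on 13 to 63 reads per library. Rpl5, Rpl22 and Rps6 were also higher, by 1.33, 1.00 and 1.30 on the log2 scale.

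**Figure D4:**
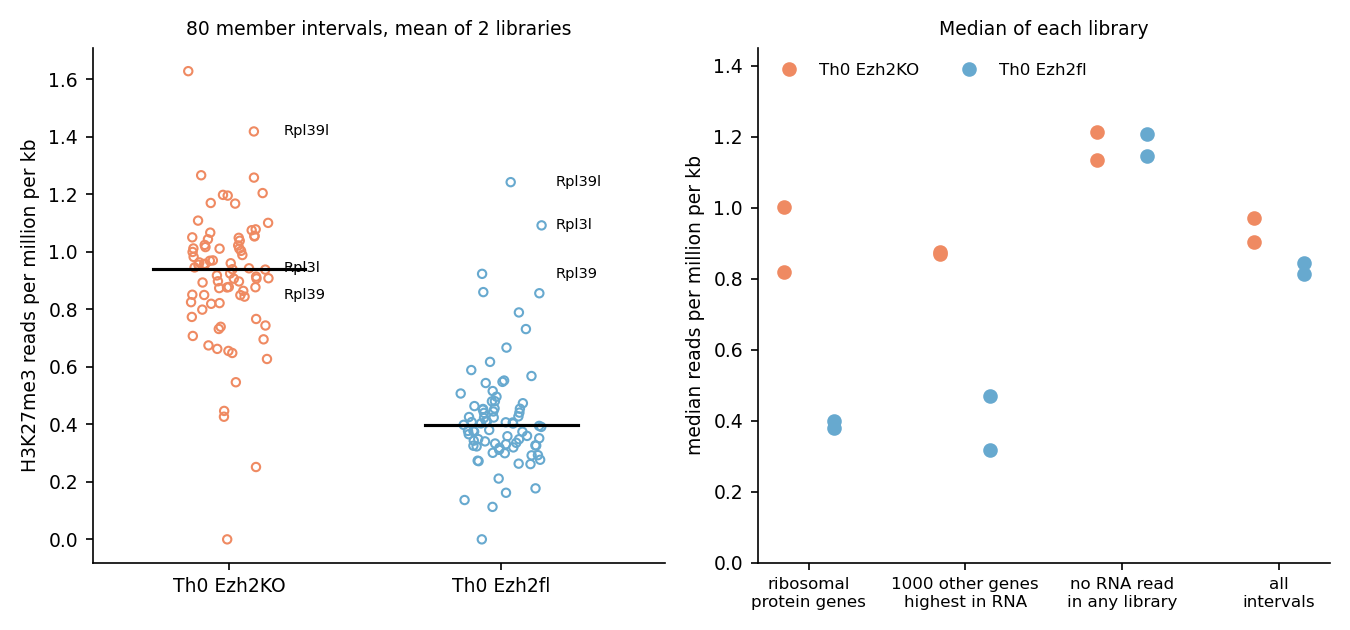
H3K27me3 density in Th0 cells, in CPM per kb of gene interval: left, the 80 ribosomal protein gene intervals as means of 2 libraries, with the median as a line; right, the median of each library for 4 sets of intervals. Members have medians of 0.939 in Ezh2KO and 0.396 in Ezh2fl cells, and the 1000 other genes with the highest RNA show nearly the same pair, 0.870 and 0.395.

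This difference was shared by other highly expressed genes. The 1000 non-members with the highest RNA in Th0 Ezh2fl cells had median densities of 0.870 in Ezh2KO and 0.395 in Ezh2fl, a median change of 1.13, and 86.9% of those tested were called higher. The 5180 non-members without a read in any RNA library had 1.18 in Ezh2KO and 1.17 in Ezh2fl, and 3.12% of those tested were called higher. The values are shares of each library, and whether the mark itself was gained on these genes was not tested. With TMM scaling the median change of the members was 0.93. No member was called when either Ezh2KO library was left out, although the median change was then still at least 0.96. Without Ezh2fl 33, 53 members were called higher and 1 lower, and without Ezh2fl 7, 49 were called higher. For the fits with a library left out, the share of all tested intervals called is not given. Intervals of 34 members overlap another interval, 22 of them one of a small nucleolar RNA gene. Among the 43 tested members that overlap none 28 were called higher, against 29.9% of all tested intervals that overlap no other.

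The highest densities in Ezh2fl cells belonged to tissue-restricted or X-linked members. Rpl39l, at 1.13 and 1.71 in Ezh2KO and 1.09 and 1.39 in Ezh2fl libraries, and Rpl3l, at 0.978 and 0.906 in Ezh2KO and 1.19 and 0.995 in Ezh2fl libraries, were not called (changes 0.18 and -0.21; adjusted p = 0.647 and 0.521, edgeR). The libraries of the genotypes overlapped for Rpl39l, while for Rpl3l both Ezh2KO libraries were below both Ezh2fl libraries. Both genes had almost no counted RNA. Rpl10l, listed at 0 in RNA, had 1.23 and 2.02 in Ezh2KO and 0.616 and 1.10 in Ezh2fl libraries, on 7 to 23 reads (change 0.87; adjusted p = 0.131, edgeR). Rpl39 and Rps4x completed the 5, but there the 2 Ezh2fl libraries disagreed. Rpl39 had 0.827 and 0.872 in the Ezh2KO libraries, and 0.312 in Ezh2fl 33 and 1.53 in Ezh2fl 7. Rps4x had 1.17 and 0.847 in the Ezh2KO libraries, and 0.303 in Ezh2fl 33 and 1.41 in Ezh2fl 7. The 4 X-linked members together had 202 and 106 reads in Ezh2KO 10 and 9, and 33 and 198 reads in Ezh2fl 33 and 7, and the other X-linked intervals held 4.15% and 3.36% of all reads in Ezh2KO 10 and 9, and 2.35% and 5.74% in Ezh2fl 33 and 7. None of the 4 was called, and the sign of the change of Rpl39 and Rps4x depends on which Ezh2fl library is kept.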

How the data were processed

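RNA was sequenced from 12 libraries and H3K27me3 ChIP from 4. Per the submitters' processing notes, reads were trimmed with Trimmomatic 0.30, aligned to mm10 with TopHat2 2.0.6 (RNA) or Bowtie2 2.1.0 (ChIP), and counted with featureCounts 1.4.2; the handling of reads with several alignments and of strand is not given in the sources used here. The deposited values are raw read counts per gene (RNA) and per gene interval (ChIP), used as deposited. Members and gene lists were chosen with earlier results of these data known.

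Counts were tested in R 4.3.3 with edgeR 4.0.16 (robust quasi-likelihood F test, two-sided, filterByExpr with a minimum count of 10, Benjamini-Hochberg over all features, threshold 0.05). RNA used TMM scaling and 1 fit of 4 groups; ChIP used library size alone. DESeq2 1.42.0 and limma-voom (limma 3.58.1) were alternatives, with other scalings, no filter, groups fitted alone and libraries left out. The limma-voom fits, with and without the library number as a random block, were chosen after seeing the data. CPM are scaled by TMM; ChIP density is CPM per kb of interval. The fits were also run on simulated counts, whose changes were larger than the RNA changes of most members. They therefore say nothing on how well changes of that size are found. Named members were a fixed set, up to 5 called rises and falls (or the 3 smallest p) per RNA comparison, the 5 highest and lowest per kb, and the 5 densest in ChIP. Of the 50 members called in ChIP, only Rps16, with the largest change, and members of the fixed set were named as called. From each list, only genes among the 3 with the smallest p in a comparison were named. Counts carry no molecular identifiers, so a floor of 3 reads for 0 covers counting error only. Libraries are labelled as separate replicates. In RNA the p-values measure a spread estimated for each gene over all 4 groups, and not only over the groups compared. By median coefficient of variation, other genes of at least 100 CPM varied more in iTreg (28.9% in Ezh2KO, 14.5% in Ezh2fl) than in Th0 (3.05% and 3.58%). In ChIP the spread was estimated over the 4 libraries.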

Additional observations from a re-analysis of the deposited data

How the results depend on the processing

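Each of 752 values recomputed for named genes under an alternative was compared with its value as reported: 582 kept direction and side of the threshold, 115 lost the call, 48 gained one and 7 reversed. In the Th0 genotype comparison the members called became 11 with DESeq2, 31 with the 2 groups alone and 32 without iTreg KO-165 and fl-177 (0 to 10 leaving out 1 library; median -0.12 to -0.05). In iTreg they became 10 with DESeq2 and 36 without KO-165 and fl-177, with a median of 0.13 (0 to 17; median 0.064 to 0.13). The interaction gave 11 and 43 (0 to 18; median 0.13 to 0.22). For iTreg against Th0 in Ezh2KO the count was 18 with DESeq2, 1 without the filter, 0 with the groups alone and 35 without KO-165 and fl-177, with a median of -0.056 (0 to 6; median -0.12 to -0.056). In Ezh2fl it was 47 with DESeq2, 13 with library size scaling (median -0.21), 10 without the filter, 49 with the groups alone and 63 without KO-165 and fl-177 (4 to 55; median -0.32 to -0.25). For H3K27me3 it was 28 over intervals without overlap, the TMM median was 0.93, and leaving out 1 library gave 0 to 54 (median 0.96 to 1.39). The H3K27me3 change of Rpl39l turned to -0.058 with TMM and -0.016 with DESeq2 size factors, and that of Rps4x to -0.018 with TMM. Leaving out 1 library gave -0.14 to 0.46 for Rpl39l, -0.46 to 1.75 for Rps4x and -0.85 to 1.43 for Rpl39. The cause was not tested. Shares of all tested genes or intervals called under these other fits are not given, so the counts show the dependence on the setting only. The groups compared share at most 1 library number, and the labels do not say what a number marks. The numbers found in both cultures are those of the iTreg libraries that stood apart. Without these libraries culture and number cannot be told apart, in the culture comparisons and in the interaction. Limma-voom with the number as a random replicate block, chosen after seeing the data, gave a correlation of -0.0087 between libraries of the same number, over the 2 numbers that recur. It called 0 members between genotypes in Th0, 1 in iTreg, 0 for the interaction, 4 for iTreg against Th0 in Ezh2KO and 24 in Ezh2fl, against 0, 1, 0, 5 and 24 with limma-voom without the block. Where a group was left with 1 ChIP library, it was assumed to vary like the other group.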
